A study of Homo sapiens with 24 samples.

Results

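The AP-1 family is a set of basic leucine zipper (bZIP) transcription factors, and 9 of its genes are described here: FOS, FOSB, FOSL1 and FOSL2 of the FOS group, JUN, JUNB and JUND of the JUN group, and ATF3 and BATF3, which pair with JUN proteins. They were taken by name and matched by Ensembl ID, and all 9 were found in each count table, out of 80527 genes listed over the 3 tables. AP-1 proteins bind DNA as pairs: JUN proteins pair with each other or with a FOS partner, and FOS proteins need a JUN partner. FOS, FOSB, JUN, JUNB and ATF3 are early genes that a cell switches on within minutes of serum, growth factors, stress or mechanical disturbance, whereas FOSL1, FOSL2 and JUND turn over more slowly. In many cell types AP-1 drives genes of invasion, matrix breakdown and inflammation, and in neuroblastoma it is known for activity in mesenchymal-type cells.

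RNA sequencing was carried out after knockdown of FAM167A (also named DIORA1), a gene studied for its product's binding to MRCK kinases and its part in cell motility. There were 3 experiments, each with its own controls. SK-N-SH cells, a human neuroblastoma line with both neuroblast-like and flat cells, received an siRNA pool against FAM167A (KD, 5 libraries) or a non-targeting siRNA pool (NTC, 5 libraries). In the second experiment SK-N-SH cells with CRISPR interference (CRISPRi, an SpCas9-KRAB fusion that represses the gene its guide RNA marks) carried the guide sgDIORA1 (KD, 3 libraries) or sgGal4, which has no human target (NTC, 3 libraries). In the third, SK-N-AS cells, another human neuroblastoma line, had the same CRISPRi system with sgDIORA1 (KD, 4 libraries) or sgGal4 (NTC, 4 libraries). Whether replicates are separate cultures, and whether the CRISPRi cells are clones or pools, is not stated in the labels, so p-values measure the spread between these libraries, which may be technical.

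The siRNA libraries held 71464698 to 90255175 reads in genes, the SK-N-SH CRISPRi libraries 11690515 to 21628076, and those of SK-N-AS 29985858 to 104455853. FAM167A stood at 65.2 CPM (the usual count scaled to library size, here with TMM factors) in KD and 188 CPM in NTC with siRNA, at 3.22 CPM in KD and 242 CPM in NTC in SK-N-SH CRISPRi, and at 10.2 CPM in KD and 95.1 CPM in NTC in SK-N-AS. HAND2, a defining factor of sympathetic neuroblasts, was present in every group, at 689.7 CPM in KD and 654 CPM in NTC with siRNA, 238 CPM in KD and 459.9 CPM in NTC in SK-N-SH CRISPRi, and 608 CPM in KD and 612 CPM in NTC in SK-N-AS. It is 1 of a list of 10 adrenergic markers, and some others of that list were low. TH had a group mean of at most 0.718 CPM in any experiment. In SK-N-AS, DBH was at 5.72 CPM in KD and 12.9 CPM in NTC. Endothelial and glial marker lists each summed to at most 4.80 CPM in any library, as did the blood list in SK-N-SH. The epithelial list summed to more, at 28.9 to 36.7 CPM in KD and 25.7 to 30.2 CPM in NTC with siRNA. Its sums were 158 to 166 CPM in KD and 78.9 to 86.4 CPM in NTC in SK-N-SH CRISPRi. In SK-N-AS they were 113 to 122 CPM in KD and 112 to 118 CPM in NTC. KRT18 and KRT8 made up most of these sums. In SK-N-SH CRISPRi they had 140 and 21.2 CPM in KD, and 73.2 and 8.94 CPM in NTC. No other gene of the epithelial list, which includes EPCAM and CDH1, had a group mean above 0.909 CPM in any experiment. In SK-N-AS the blood gene PTPRC was at 451 CPM in KD and 542 CPM in NTC, while CD3D and HBB were at 0.

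On GRCh38, as the SK-N-AS table gives the gene models, FOS lies on the plus strand at chr14:75278826-75283190, FOSB on the plus strand at chr19:45467995-45475179, FOSL1 on the minus strand at chr11:65892049-65900573 and FOSL2 on the plus strand at chr2:28392448-28417317. JUN lies on the minus strand at chr1:58776845-58784048, JUNB on the plus strand at chr19:12791486-12793315 and JUND on the minus strand at chr19:18279694-18281622. ATF3, on the plus strand at chr1:212565334-212620777, neighbours BATF3, on the minus strand at chr1:212686417-212699840. The models of FOS, JUN and some others have different ends in the siRNA table, where JUN is given as chr1:58780788-58784327.

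Short stretches around the start sites are shown for 6 of the genes, because these hold the letters that AP-1 and its relatives are known to bind. RefSeq (GRCh38.p14) promoters, from 250 bases before to 50 bases after a start site, matched 7 of the 9 genes with 8 start sites; FOSL1 and BATF3 were not among them. Both strands were searched for TGANTCA (the AP-1 site), TGACGTCA (the cyclic AMP response element, CRE), TGACATCA (the form known from the JUN promoter) and the serum response element core (the CArG box). In the sequences below the capitals mark the match, 5′ to 3′ on the gene's strand, in windows of 30 bases.
JUN, TGACATCA, chr1:58784096-58784125, minus strand: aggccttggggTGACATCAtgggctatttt
ATF3, TGACATCA, chr1:212565273-212565302, plus strand: cacctatgataTGACATCAtatggccactc
FOSL2, TGANTCA, chr2:28392851-28392880, plus strand: tgccattgtagTGACTCAtctcgggcagag
JUND, TGACGTCA, chr19:18281804-18281833, minus strand: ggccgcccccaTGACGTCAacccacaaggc
Counted from 0 at the start site, the match begins at position -67 in JUN, -123 in ATF3, 4 in FOSL2 and -200 in JUND. ATF3 has 2 of the 8 start sites, and its match belongs to the upstream one. The promoter of its other start site held none of these matches. Of 35116 promoters of this length, 7.71% hold TGANTCA, 1.85% TGACGTCA, 2.61% TGACATCA and 1.29% a CArG box. No CArG box was found in these windows, which says only that the letters are not within them.

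FOS and FOSB had the largest differences in response between the CRISPRi experiments, and the 120 bases before their start sites are set side by side for that reason, with TGACG, the first part of a CRE, in capitals.
FOS, chr14:75278708-75278827, plus strand: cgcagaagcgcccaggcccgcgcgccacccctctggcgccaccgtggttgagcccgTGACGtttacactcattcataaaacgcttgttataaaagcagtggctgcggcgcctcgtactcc
FOSB, chr19:45467876-45467995, plus strand: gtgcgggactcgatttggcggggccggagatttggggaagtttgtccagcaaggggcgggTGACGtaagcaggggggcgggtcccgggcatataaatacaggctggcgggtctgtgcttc
The TGACG of FOS begins at position -64 and that of FOSB at position -60. JUN, JUNB, JUND and FOSL2 hold TGACG too, FOSL2 at positions -66 and -201. TGACG lies within every TGACGTCA, and 24.6% of all promoters hold it, so it is a common stretch.

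Which AP-1 genes are abundant differed between the experiments, as the plot of levels per kilobase shows. A level per kilobase is CPM divided by gene model length, taken from the siRNA table for all 3 experiments. The experiments were normalised apart, so orders are read within an experiment. The FOS and JUN models have other ends in the CRISPRi experiments. The JUN model spans more bases in both of them, and the FOS model spans more in SK-N-AS. The lengths may therefore not fit the CRISPRi counts. The place of JUN in the CRISPRi orders is uncertain, as is that of FOS in SK-N-AS. With siRNA, JUND led at 43.2 ± 2.53 CPM per kilobase in KD and 44.4 ± 2.03 CPM per kilobase in NTC (SD, n = 5 each). In NTC, FOSL1 (21.7), JUN (19.0) and JUNB (18.8 CPM per kilobase) followed, with overlapping libraries between these neighbours; in KD, FOSL1 came after JUN and JUNB, at 13.9 CPM per kilobase, with every FOSL1 library below every JUNB library. FOSL2, FOS, ATF3, BATF3 and FOSB came next in that order in both groups, without overlap between neighbours, down to 0.0761 CPM per kilobase in KD and 0.0744 CPM per kilobase in NTC for FOSB.

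In SK-N-SH CRISPRi, JUND again led, at 63.7 ± 2.12 CPM per kilobase in KD and 80.1 ± 6.38 CPM per kilobase in NTC (SD, n = 3 each). FOSL1 and FOS came after it, at 49.2 and 35.5 CPM per kilobase in KD and at 56.1 and 51.3 CPM per kilobase in NTC, and these neighbours overlapped in NTC only. FOSL2 was above FOSB in KD (12.4 and 6.66 CPM per kilobase) and below FOSB in NTC (7.92 and 9.76 CPM per kilobase), without overlap in either group. BATF3 was the lowest member here, at 0.0967 CPM per kilobase in KD and 0.156 CPM per kilobase in NTC.

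In SK-N-AS the leading member was JUNB, at 176 ± 4.37 CPM per kilobase in KD and 155 ± 8.08 CPM per kilobase in NTC (SD, n = 4 each). FOS was next, at 122 CPM per kilobase in KD and 87.9 CPM per kilobase in NTC, followed by JUND at 66.1 CPM per kilobase in KD and 78.5 CPM per kilobase in NTC. FOS and JUND libraries overlapped in NTC and not in KD. JUN, the founding member of its group, stood at 17.7 CPM per kilobase in KD and 18.2 CPM per kilobase in NTC, and in NTC it overlapped FOSB, which stood at 18.2 CPM per kilobase.

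**Figure D1:**
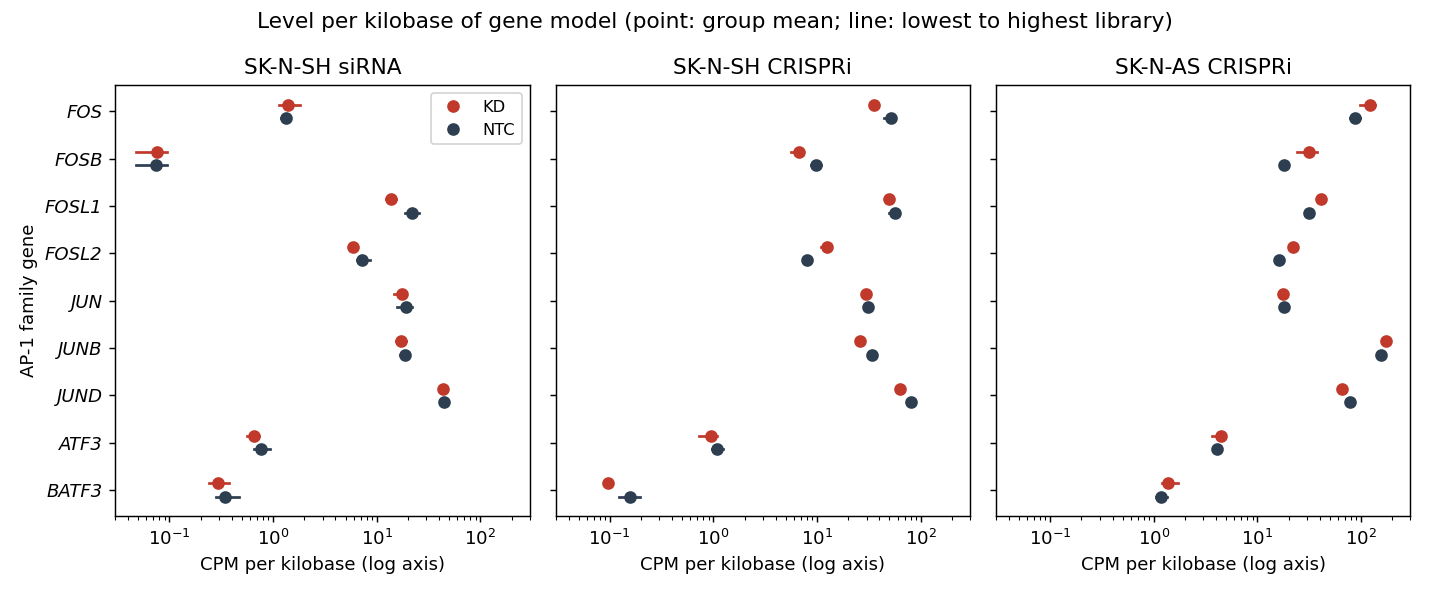
Levels of the 9 AP-1 genes per kilobase of gene model (log axis) in KD, upper of each pair, and NTC, lower, in each experiment. Points are group means and lines run over the libraries; JUND leads in both SK-N-SH experiments and JUNB in SK-N-AS, and FOSB is the lowest member with siRNA.

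Summed over the 9 genes, the level per kilobase was 91.3 to 107 in KD and 101 to 123 in NTC with siRNA, 221 to 225 in KD and 270 to 273 in NTC in SK-N-SH CRISPRi, and 457 to 512 in KD and 382 to 426 in NTC in SK-N-AS. The sum in KD libraries was below all NTC libraries in SK-N-SH CRISPRi and above all of them in SK-N-AS, while KD and NTC overlapped with siRNA. The FOS group's share of that sum was 21.3 ± 0.98% in KD and 26.7 ± 1.29% in NTC with siRNA (SD, n = 5 each). It was 46.4 ± 0.42% in KD and 46.1 ± 1.11% in NTC in SK-N-SH CRISPRi (SD, n = 3 each), and 44.9 ± 3.05% in KD and 37.4 ± 1.22% in NTC in SK-N-AS (SD, n = 4 each). These sums and shares are a description of level per kilobase, share its limit on gene model lengths, and carry no test.

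The responses to knockdown ran in different directions in the 3 experiments, shown in the plot of log2 fold changes. With siRNA, no AP-1 gene was called higher and 2 of the 9 tested (FOSL1 and FOSL2) were called lower, beside 9.53% of all genes called in either direction, 2.55% higher and 6.98% lower. In SK-N-SH CRISPRi, 1 of 8 tested (FOSL2) was called higher and 5 (FOS, FOSB, FOSL1, JUNB and JUND) lower, beside 55.8% of all genes called, 27.7% higher and 28.0% lower. In SK-N-AS, 5 of 9 (FOS, FOSB, FOSL1, FOSL2 and JUNB) were called higher and 1 (JUND) lower, beside 30.6% of all genes called, 15.2% higher and 15.5% lower. The median log2 fold change of the tested members was -0.13 with siRNA, -0.26 in SK-N-SH CRISPRi and 0.21 in SK-N-AS, where that over all genes was 0.0085, -0.0068 and -0.0024. A gene is called at an adjusted p under 0.05 in edgeR's quasi-likelihood test, with Benjamini-Hochberg adjustment over all genes tested, and every adjusted p below comes from it. Among the members tested, KD and NTC libraries did not overlap for 2 with siRNA, 5 in SK-N-SH CRISPRi and 6 in SK-N-AS, beside 8.74%, 60.7% and 29.1% of all genes. With siRNA both had KD below NTC, beside 6.08% of all genes below and 2.65% above. In SK-N-SH CRISPRi, 1 was above and 4 below, beside 30.2% and 30.5%, and in SK-N-AS 5 were above and 1 below, beside 14.4% and 14.6%.

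**Figure D2:**
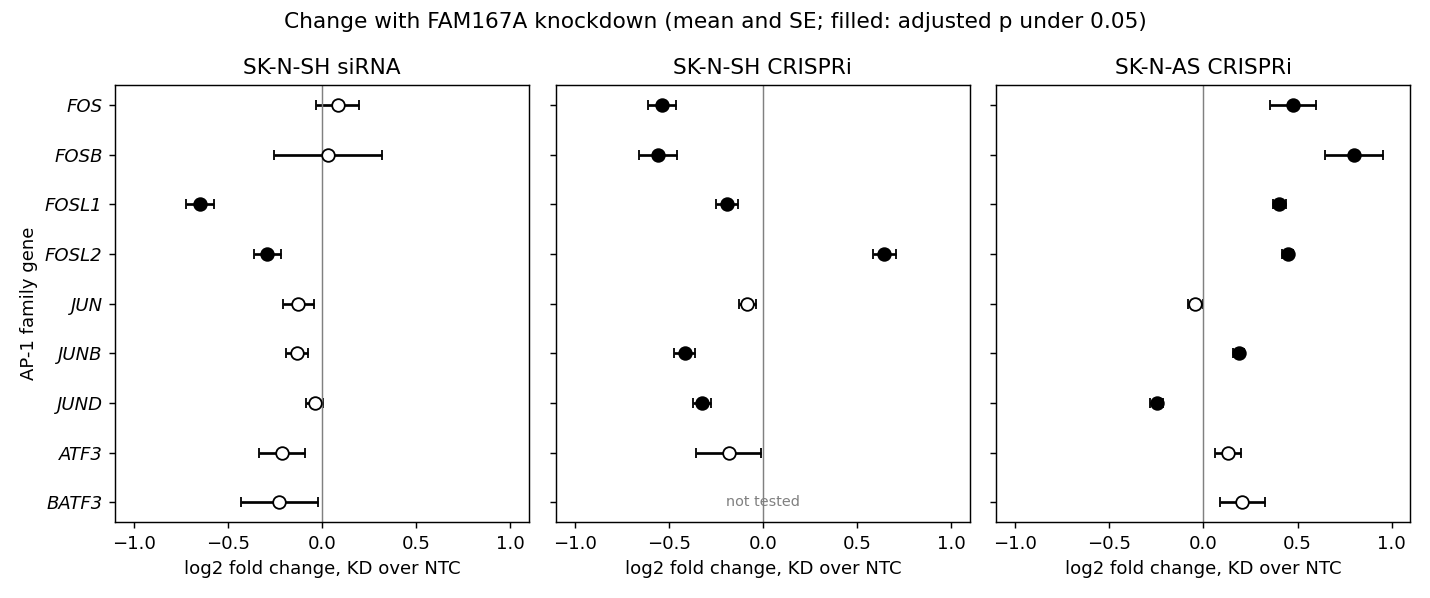
Log2 fold changes of the 9 AP-1 genes, KD over NTC, with their SE, one panel per experiment; filled points have an adjusted p under 0.05. FOSL1 and FOSL2 lie left of 0 with siRNA, FOSL2 alone lies clearly right of 0 in SK-N-SH CRISPRi, and JUND alone is a filled point left of 0 in SK-N-AS.

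FOS, the founding member of the family, was called lower in SK-N-SH CRISPRi and higher in SK-N-AS, and passed the test in neither direction with siRNA. The SK-N-SH CRISPRi experiment had it at 120.2, 111 and 114 CPM in KD, against 145, 183 and 171 CPM in NTC. Every KD library lay below every NTC library, and FOS fell (log2 fold change -0.54, SE 0.07, adjusted p = 6.19e-05). SK-N-AS cells had it at 317, 446, 427 and 390.4 CPM in KD, against 279, 315, 252 and 293 CPM in NTC, so that KD libraries lay above NTC libraries by a small margin at the lowest KD library. FOS was called higher there (log2 fold change 0.48, SE 0.12, adjusted p = 0.0289), but the call was lost in 6 of the 8 fits that left out a library (without KD2, KD3, KD4, NTC1, NTC3 or NTC4), with an adjusted p of up to 0.0789, and with no filter on low counts (adjusted p = 0.0638). With siRNA it had 4.11, 5.90, 4.23, 3.67 and 4.83 CPM in KD, against 4.64, 4.06, 4.61, 3.83 and 4.32 CPM in NTC. The siRNA groups overlapped, and the log2 fold change of 0.08 had an interval of -0.14 to 0.31 (95%; adjusted p = 0.738).

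FOSB, which encodes a FOS protein that accumulates with repeated stimulation in neurons, followed FOS in the CRISPRi experiments. With CRISPRi in SK-N-SH it had 40.4, 30.9 and 39.6 CPM in KD, against 48.5, 60.1 and 54.1 CPM in NTC. The groups did not overlap, and FOSB fell (log2 fold change -0.55, SE 0.10, adjusted p = 6.06e-04). The SK-N-AS libraries had FOSB at 134, 211, 192 and 164 CPM in KD, against 97.4, 110.2, 91.2 and 106 CPM in NTC. All KD libraries were above all NTC libraries, and FOSB rose 1.74-fold (log2 fold change 0.80, SE 0.15, adjusted p = 0.00815), the largest rise among the members. KD1 was the lowest of the KD libraries for both FOS and FOSB in SK-N-AS, and KD2 the highest. With siRNA, FOSB was counted in few reads, with 171 over the 5 KD libraries and 154 over the 5 NTC libraries, and its log2 fold change of 0.03 had an interval of -0.53 to 0.59 (adjusted p = 0.969). FOSB lies wholly within ERCC1, a DNA repair gene on the other strand, which had 21222 reads in KD and 21611 in NTC with siRNA; the sources used here do not say whether reads were counted by strand, and without that the reads of the pair cannot be told apart.

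FOSL1, whose product FRA-1 is known from invasive and mesenchymal cells, had the largest change with siRNA. It had 23.0, 28.7, 25.8, 26.0 and 27.4 CPM in KD, against 41.0, 38.7, 41.9, 48.3 and 35.2 CPM in NTC. Every KD library lay below every NTC library, and FOSL1 fell to 63.8% of the NTC mean (log2 fold change -0.65, SE 0.07, adjusted p = 6.14e-06). In SK-N-SH CRISPRi it had 89.0, 97.9 and 91.4 CPM in KD, against 115, 94.1 and 109 CPM in NTC. The groups overlapped, and the call of a fall (log2 fold change -0.19, SE 0.06, adjusted p = 0.00711) was lost without KD1 (adjusted p = 0.0506). In SK-N-AS it had 77.9, 80.4, 76.0 and 77.5 CPM in KD, against 60.8, 58.0, 57.6 and 59.5 CPM in NTC. There the groups were well apart, and FOSL1 rose (log2 fold change 0.40, SE 0.03, adjusted p = 9.00e-12).

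FOSL2, which encodes FRA-2, was called in all 3 experiments: lower with siRNA and higher in both CRISPRi experiments. With siRNA it had 38.5, 44.9, 44.9, 44.0 and 39.9 CPM in KD, against 47.0, 52.5, 52.8, 61.7 and 45.7 CPM in NTC. The KD libraries were all lower, by less than 1 CPM at the nearest pair, and FOSL2 fell (log2 fold change -0.29, SE 0.07, adjusted p = 0.0148). The SK-N-SH CRISPRi experiment had it at 93.9, 93.8 and 78.5 CPM in KD, against 59.0, 53.1 and 57.9 CPM in NTC. It was the only member called higher in that experiment, 1.57-fold (log2 fold change 0.65, SE 0.06, adjusted p = 1.23e-09). SK-N-AS cells had it at 159.5, 159, 158 and 152 CPM in KD, against 118, 112, 113 and 118 CPM in NTC. The groups did not overlap, and FOSL2 rose 1.36-fold (log2 fold change 0.45, SE 0.03, adjusted p = 9.62e-15).

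JUN passed the test in none of the experiments by the fit used here. With siRNA it had 51.8, 63.7, 65.2, 64.9 and 62.2 CPM in KD, against 69.1, 64.5, 70.2, 76.9 and 55.7 CPM in NTC. The groups overlapped, and the log2 fold change of -0.13 had an interval of -0.29 to 0.03 (adjusted p = 0.41). With CRISPRi in SK-N-SH it had 109.7, 100.3 and 102 CPM in KD, against 107, 109 and 115 CPM in NTC (log2 fold change -0.08, interval -0.17 to 0.01, adjusted p = 0.131). Scaled by library totals alone, JUN was called lower there (log2 fold change -0.21, adjusted p = 1.71e-04). The SK-N-AS libraries had JUN at 62.8, 65.1, 61.0 and 61.5 CPM in KD, against 68.5, 60.7, 61.3 and 67.4 CPM in NTC (log2 fold change -0.04, interval -0.12 to 0.03, adjusted p = 0.44). In both CRISPRi experiments the interval for JUN excludes a rise as large as that of FOSL2.

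JUNB, a JUN protein that can restrain JUN in some settings, fell in SK-N-SH CRISPRi and rose in SK-N-AS. In SK-N-SH CRISPRi it had 47.3, 46.6 and 46.7 CPM in KD, against 57.2, 64.9 and 64.4 CPM in NTC. The KD libraries were nearly alike and all below NTC (log2 fold change -0.41, SE 0.06, adjusted p = 5.58e-08). In SK-N-AS it had 328, 326, 311 and 316 CPM in KD, against 294, 279, 261 and 291 CPM in NTC. The rise was the smallest of those called there, 1.14-fold (log2 fold change 0.19, SE 0.03, adjusted p = 5.06e-06), with no overlap. With siRNA it averaged 31.2 ± 2.90 CPM in KD and 34.2 ± 2.15 CPM in NTC (SD, n = 5 each; log2 fold change -0.13, adjusted p = 0.194). The whole JUNB gene lies within HOOK2 on the other strand, which had 12522 reads in KD and 10468 in NTC with siRNA, so the same limit as for FOSB applies.

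JUND, the JUN protein that most cells express steadily, was the member called lower in both CRISPRi experiments. The SK-N-SH CRISPRi experiment had it at 114, 122 and 119 CPM in KD, against 163, 145 and 140.3 CPM in NTC. SK-N-AS cells had it at 129, 127, 117 and 119.9 CPM in KD, against 145, 144, 139 and 156 CPM in NTC. The groups did not overlap in either experiment, and JUND fell by 0.33 on the log2 scale in SK-N-SH CRISPRi (SE 0.05, adjusted p = 5.74e-07) and by 0.25 in SK-N-AS (SE 0.03, adjusted p = 3.82e-07). With siRNA it averaged 80.5 ± 4.70 CPM in KD and 82.7 ± 3.78 CPM in NTC (SD, n = 5 each; log2 fold change -0.04, interval -0.13 to 0.05, adjusted p = 0.676).

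ATF3, a stress-induced partner of JUN that often represses its targets, and BATF3, known for its part in dendritic and T cells, passed the test nowhere. ATF3 averaged 2.67 ± 0.24 CPM in KD and 3.09 ± 0.46 CPM in NTC with siRNA (SD, n = 5 each; log2 fold change -0.22, adjusted p = 0.321). It averaged 3.81 ± 0.80 CPM in KD and 4.38 ± 0.54 CPM in NTC in SK-N-SH CRISPRi (SD, n = 3 each; log2 fold change -0.18, adjusted p = 0.386). The SK-N-AS libraries had ATF3 at 14.7, 19.0, 19.7 and 19.5 CPM in KD, against 16.0, 17.2, 16.2 and 17.0 CPM in NTC. KD1 lay below all NTC libraries and the other KD libraries above them, so the log2 fold change of 0.13 (adjusted p = 0.158) became 0.22 without KD1 (adjusted p = 0.00339). BATF3, which lies 65.6 kb from ATF3 on chromosome 1, had 324 reads in KD and 354 in NTC with siRNA (log2 fold change -0.23, adjusted p = 0.574) and 1091 reads in KD and 789 in NTC in SK-N-AS (log2 fold change 0.21, adjusted p = 0.204). With CRISPRi in SK-N-SH it had 12 reads in KD and 22 in NTC over 3 libraries each and was not tested; its KD libraries, at 0.262, 0.270 and 0.256 CPM, lay below its NTC libraries, at 0.413, 0.330 and 0.529 CPM, on these few reads.

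**Figure D3:**
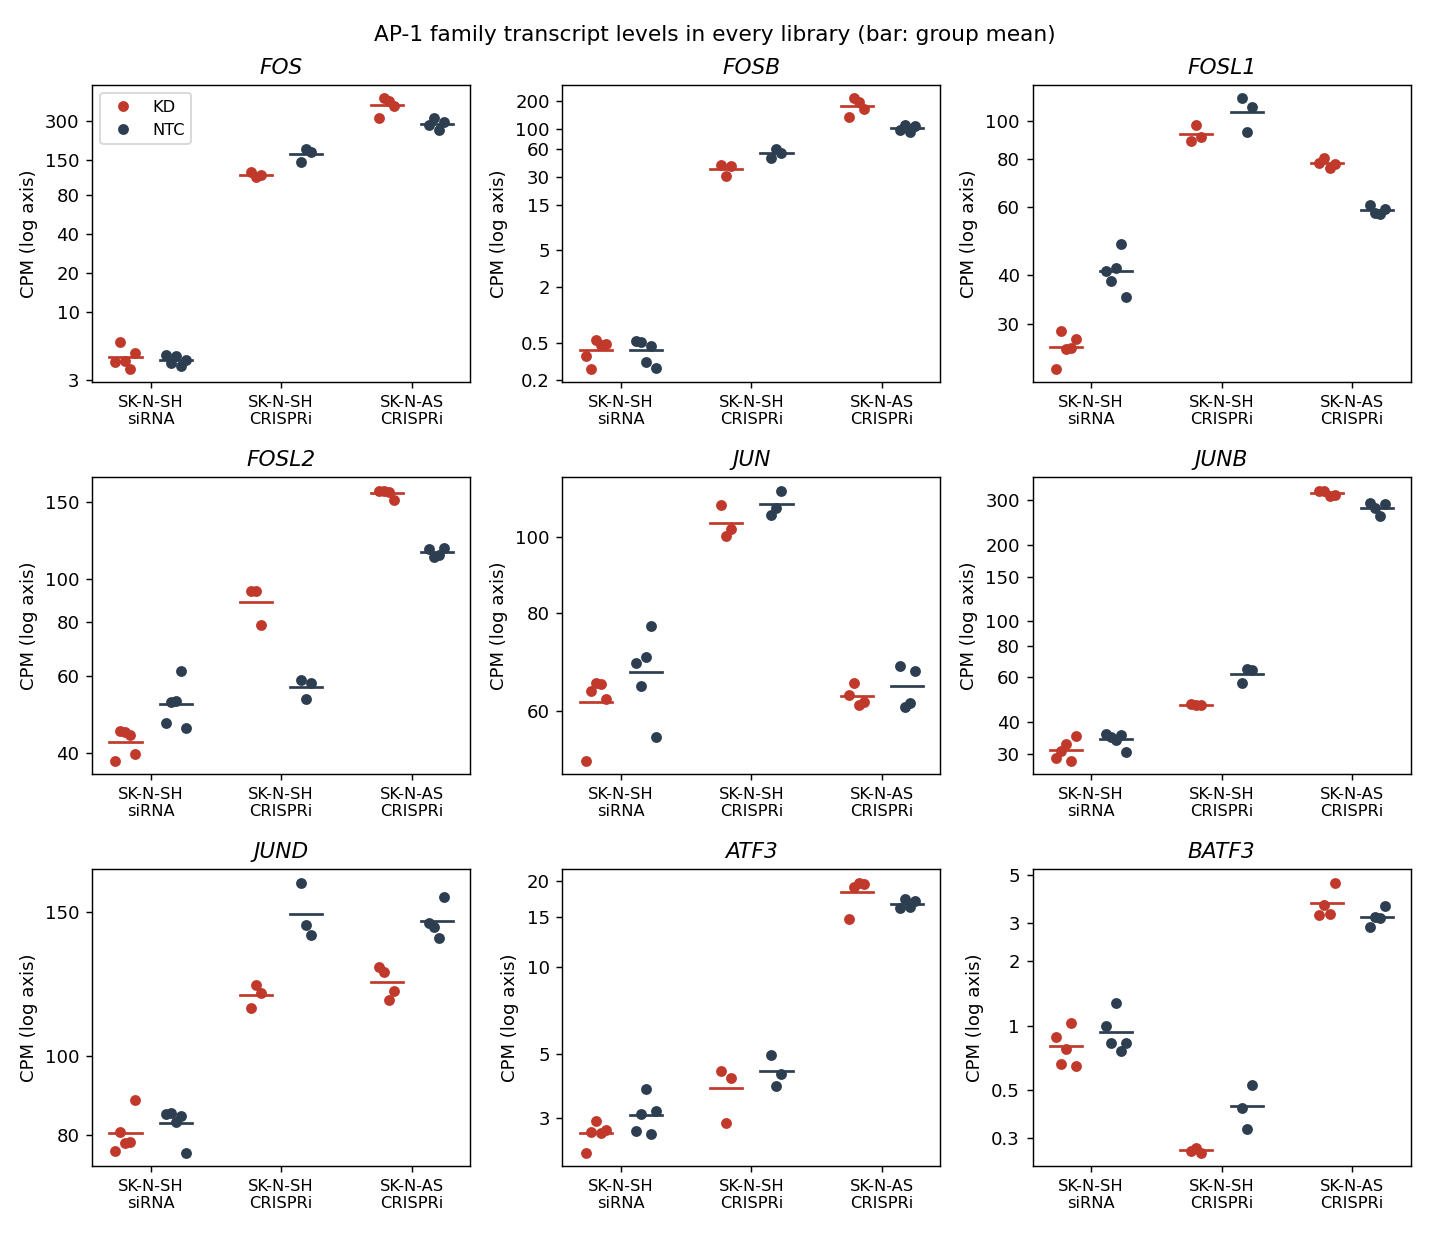
CPM of each AP-1 gene in every library (log axis), KD left of NTC in each experiment, with a bar at each group mean. The experiments were normalised apart, so groups are compared within an experiment: FOSL1 and FOSL2 KD points sit below NTC with siRNA and above NTC in SK-N-AS, and ATF3 in SK-N-AS has 1 KD library at 14.7 CPM apart from the rest.

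The difference between responses was tested as an interaction in a model over 2 experiments. The experiments also differ in depth, gene table and strength of knockdown. FAM167A in KD was at 34.7% of NTC with siRNA, 1.33% in SK-N-SH CRISPRi and 10.7% in SK-N-AS. In both comparisons, effects of method or line cannot be told apart from these. Between the SK-N-SH CRISPRi and siRNA responses, 5 of 9 members differed, beside 31.4% of all genes. FOSL2 had the largest difference, 0.93 on the log2 scale, CRISPRi minus siRNA (SE 0.12, adjusted p = 5.23e-06), with opposite signs in the experiments. FOSL1 differed by 0.45 (SE 0.12, adjusted p = 0.00852), a smaller fall with CRISPRi. FOS differed by -0.62 (SE 0.16, adjusted p = 0.00522), JUND by -0.30 (SE 0.07, adjusted p = 0.00165) and JUNB by -0.29 (SE 0.10, adjusted p = 0.0216). The FOSL1 call was lost with library totals alone (adjusted p = 0.064), and the JUNB call in 7 of 16 fits without a library, with an adjusted p of up to 0.0862. FOSB differed by -0.60 with an adjusted p of 0.0626; it was called with library totals alone (-0.77, adjusted p = 0.0168), with no filter on low counts (adjusted p = 0.00726) and in 4 of 16 fits without a library (adjusted p down to 0.0199). The other members, JUN, ATF3 and BATF3, had adjusted p of 0.548 or more.

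Between SK-N-AS and SK-N-SH CRISPRi responses, 5 of 9 members also differed, beside 30.7% of all genes, and this comparison shares the SK-N-SH CRISPRi libraries with the one above. FOSB differed by 1.34 on the log2 scale, SK-N-AS minus SK-N-SH (SE 0.26, adjusted p = 0.00182), and FOS by 1.00 (SE 0.19, adjusted p = 0.00153). JUNB differed by 0.59 (SE 0.06, adjusted p = 2.36e-10) and FOSL1 by 0.58 (SE 0.07, adjusted p = 5.75e-10). These 4 genes fell in SK-N-SH CRISPRi and rose in SK-N-AS. FOSL2 rose in both lines and differed by -0.21 (SE 0.07, adjusted p = 0.0105), a call lost with library totals alone (-0.07, adjusted p = 0.42) and in 3 of 14 fits without a library. The difference of 0.06 for JUND (adjusted p = 0.507) and of 0.02 for JUN (adjusted p = 0.867) did not pass, but with library totals alone both were called (0.20 for JUND, adjusted p = 0.00793, and 0.16 for JUN, adjusted p = 0.0418).

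The genes whose levels ran most like each member's were sought over the 24 libraries, with log2 CPM centred on each experiment's NTC mean, among 13935 genes, by Pearson's r. These values describe patterns that share the same libraries and group differences, and carry no test. FOSL1 was most like LIF (r = 0.98), a cytokine of the interleukin-6 family, SLC39A14 (r = 0.97), a metal transporter, and NCS1 (r = 0.96), a neuronal calcium sensor. LIF fell by 0.90 on the log2 scale with siRNA and rose by 0.67 in SK-N-AS. FOSL2 was most like EXT2 (r = 0.98), a heparan sulphate polymerase, B4GALT1 (r = 0.98), a galactosyltransferase, and SMURF2 (r = 0.97), a ubiquitin ligase of the TGF-beta pathway. JUNB was most like MSX1 (r = 0.95), a homeobox factor, JUND like WDR34 (r = 0.94), and FOS like CLSTN3 (r = 0.88). FOSB was most like RASA4 (r = 0.87), a Ras GTPase activator with near-identical copies whose counts are uncertain. JUN and ATF3 had weaker best matches, EFHD2 (r = 0.75) and AGBL2 (r = 0.71).

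Genes known as AP-1 targets, a list of 25 that includes proteases, integrins, cytokines and matrix genes, mostly moved down with siRNA. In both CRISPRi experiments most of those tested moved up. The list was chosen with earlier results of these data known, so its counts are a description and carry no test. With siRNA, 15 of 21 tested were called lower and none higher, beside 6.98% and 2.55% of all genes, with a median log2 fold change of -0.71. In SK-N-SH CRISPRi, 15 of 19 were called higher and 3 lower (median 0.58), beside 27.7% and 28.0% of all genes, and in SK-N-AS 15 of 19 higher and 2 lower (median 0.49), beside 15.2% and 15.5%, where the medians over all genes are those given above. ITGA2, the collagen-binding integrin alpha 2 chain, had 112 CPM in KD and 399.5 CPM in NTC with siRNA (adjusted p = 6.77e-15). It had 245 CPM in KD and 102 CPM in NTC in SK-N-SH CRISPRi (adjusted p = 4.10e-25) and 502 CPM in KD and 328 CPM in NTC in SK-N-AS (adjusted p = 6.70e-21). PLAU, the urokinase plasminogen activator, fell by 2.04 on the log2 scale with siRNA and rose by 1.28 in SK-N-SH CRISPRi. MMP1, the interstitial collagenase, fell to 2.01 CPM in KD, against 10.7 CPM in NTC, with siRNA, and rose to 14.2 CPM in KD, against 2.34 CPM in NTC, in SK-N-AS. CD44, the hyaluronan receptor, fell by 1.70 on the log2 scale with siRNA.

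Of the target list, CXCL8, a neutrophil chemokine, also rose by 1.57 on the log2 scale in SK-N-AS. GJA1, a gap junction protein, rose by 1.18 and ITGA5, the fibronectin receptor alpha chain, by 1.02 in SK-N-SH CRISPRi. In that experiment most of the list was called higher, while FOS, FOSB, FOSL1, JUNB and JUND were called lower and FOSL2 higher. With siRNA FOSL1 and FOSL2 were called lower, as was most of the list. In SK-N-AS FOS, FOSB, FOSL1, FOSL2 and JUNB were called higher, as was most of the list, and JUND lower. Whether any member acts on these genes here was not tested.

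**Figure D4:**
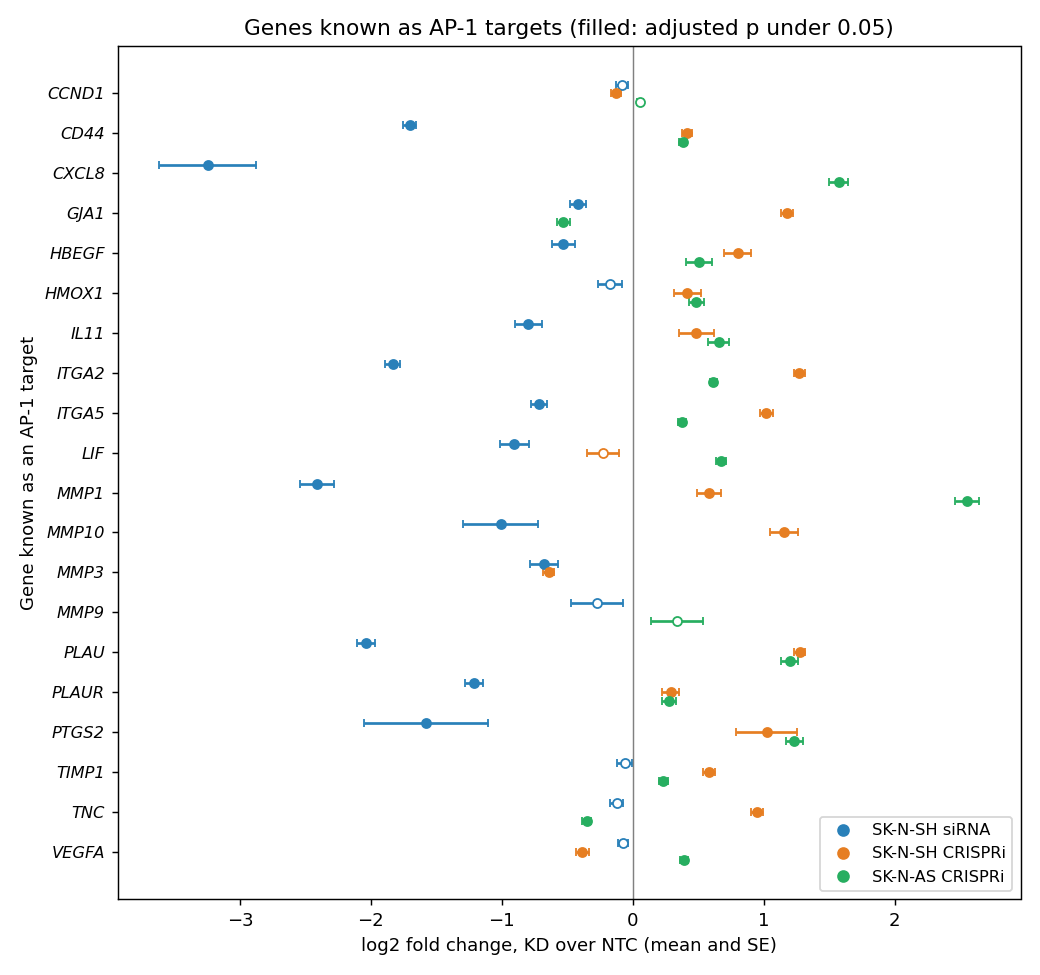
Log2 fold changes, KD over NTC, with SE, of 20 genes known as AP-1 targets that were tested in at least 1 experiment; filled points have an adjusted p under 0.05. Called siRNA points all lie left of 0, and most CRISPRi points lie right of it, with filled points of MMP3, VEGFA and CCND1 left of 0 in SK-N-SH and GJA1 and TNC left of 0 in SK-N-AS.

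The kinases that signal to AP-1 were called about as often as all genes in SK-N-SH CRISPRi. With siRNA and in SK-N-AS they were called more often than all genes, in both directions. All genes were not matched to the kinases for level of expression, whose part in these shares was not tested. The lists from here on carry no set test and are to be read against the same shares of all genes: 2.55% higher and 6.98% lower with siRNA, 27.7% and 28.0% in SK-N-SH CRISPRi, and 15.2% and 15.5% in SK-N-AS. Of 18 genes of the MAP kinase cascade, 3 were called higher and 3 lower with siRNA, 5 and 5 in SK-N-SH CRISPRi, and 4 and 6 in SK-N-AS. MAP3K1, a kinase upstream of the JUN kinases, had 42.6 CPM in KD and 81.5 CPM in NTC in SK-N-SH CRISPRi (adjusted p = 3.03e-17), and 193 CPM in KD and 246 CPM in NTC in SK-N-AS (adjusted p = 7.82e-10). MAPK8, the JUN kinase JNK1, fell by 0.45 on the log2 scale in SK-N-SH CRISPRi. MAP2K4, which activates JUN kinases, fell by 0.27 with siRNA.

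Feedback genes, the DUSP phosphatases and SPRY and SPRED inhibitors that MAP kinase activity switches on, numbered 1 higher and 8 lower of 15 with siRNA, 6 higher and 7 lower in SK-N-SH CRISPRi, and 7 higher and 4 lower in SK-N-AS. SPRY1 had 56.5 CPM in KD and 22.8 CPM in NTC in SK-N-SH CRISPRi (adjusted p = 4.22e-20). DUSP4 fell by 0.34 on the log2 scale with siRNA and rose by 0.26 in SK-N-AS. DUSP6, a phosphatase of the ERK kinases, rose by 0.37 and DUSP10, a phosphatase of the stress kinases, by 0.53 in SK-N-AS.

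Factors that act on the FOS and JUN promoters, which include SRF, its ELK partners and MEF2, numbered 0 higher and 3 lower of 10 with siRNA, and 5 higher and 1 lower in each CRISPRi experiment. MEF2D had 188 CPM in KD and 92.3 CPM in NTC in SK-N-SH CRISPRi (adjusted p = 5.31e-22). Of the factors in SK-N-AS, ELK4 rose by 0.26, MEF2A by 0.15 and STAT3 by 0.12 on the log2 scale, and SRF, the serum response factor, fell by 0.13. Other bZIP partners numbered 0 higher and 2 lower of 13 tested with siRNA, 8 and 1 of 11 in SK-N-SH CRISPRi, and 5 and 1 of 12 in SK-N-AS. MAFK, a small MAF protein, rose in both CRISPRi experiments, by 0.65 in SK-N-SH and 0.57 in SK-N-AS on the log2 scale.

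Markers of cell identity moved with the groups. In SK-N-SH CRISPRi all 9 tested of 10 adrenergic neuroblastoma markers were called lower, with a sum of 803 to 845 CPM in KD and 2246 to 2361 CPM in NTC, and 7 of 10 mesenchymal markers higher and 1 lower, with a sum of 11090 to 11730 CPM in KD and 5970 to 6847 CPM in NTC. FN1 and VIM made up most of this mesenchymal sum, at 5609 and 3969 CPM in KD and 2467 and 2768 CPM in NTC. Fibroblast and smooth muscle markers (5 of 5 tested higher) summed to 1843 to 1910 CPM in KD and 1034 to 1135 CPM in NTC there. The same list had 5 called higher and 1 lower of 6 tested in SK-N-AS (1363 to 1430 CPM in KD and 1137 to 1183 CPM in NTC), and 3 higher and 1 lower of 6 with siRNA (333 to 348 CPM in KD and 309 to 335 CPM in NTC). In SK-N-AS 5 of 10 adrenergic markers were called lower, and of 10 mesenchymal markers 6 higher and 3 lower, with sums of 1470 to 1554 CPM in KD and 1730 to 1816 CPM in NTC, and of 2850 to 2930 CPM in KD and 2664 to 2716 CPM in NTC. With siRNA 6 of 10 mesenchymal markers were called lower, with sums of 2305 to 2595 CPM in KD and 2882 to 3086 CPM in NTC. There 3 of 9 adrenergic markers were called higher, and the sums of that list overlapped. They were 2690 to 2891 CPM in KD and 2571 to 2782 CPM in NTC. The part of these shifts in the AP-1 values was not tested, and in these bulk samples fewer cells of a type and less RNA per cell cannot be told apart. Heat shock genes, which respond with early genes to handling, numbered 0 higher and 2 lower of 10 with siRNA, 2 and 3 in SK-N-SH CRISPRi, and 1 and 2 in SK-N-AS; their part in the FOS and FOSB values was not tested.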

How the data were processed

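Gene expression was measured in 24 libraries from SK-N-SH cells or SK-N-AS cells. The authors deposited raw counts, as whole reads per gene, in 1 table for each experiment. Per the submitters' processing notes the tools were bcl2fastq 2.20.0.422 and 2.20, CASAVA, FastQC 0.11.8, STAR 2.6.1d and featureCounts 1.5.1, with GRCh38. The sources used here do not tie a tool to a step and name neither the annotation release nor the strand setting. Per the labels' protocols the CRISPRi libraries used a stranded mRNA kit, and for the siRNA libraries either a stranded or a non-stranded protocol is described.

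Each experiment was fitted alone, KD against NTC, in R 4.3.3 with edgeR 4.0.16 (filterByExpr with a minimum count of 10 and a minimum total of 15, TMM factors, robust quasi-likelihood test, two-sided), and p-values were adjusted by the Benjamini-Hochberg method over the 21018, 15391 and 19277 genes tested. The filter looks at all libraries of an experiment. Differences between responses are interaction terms in models of 2 experiments. Each SE was derived from the fold change and its F statistic. The scripts were tested on simulated data. Alternatives were DESeq2 1.42.0, other scalings, other filters, each library left out and a replicate block.

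In SK-N-SH CRISPRi the TMM factors were 0.954 to 0.958 in KD and 1.04 to 1.05 in NTC, a shift of -0.13 on the log2 scale between the groups, and the changes reported are relative to it. The members and gene lists were chosen with earlier results of these data known. Besides the 9 members and FAM167A, genes named are up to 4 called per list and experiment with the smallest adjusted p, and the genes most like each member. HAND2, TH, DBH, PTPRC, CD3D, HBB, KRT18, KRT8, EPCAM, CDH1, FN1 and VIM, named as markers, were chosen after their values were seen. Some genes that this rule selects are not reported here.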

Additional observations from a re-analysis of the deposited data

Results flagged for a closer look

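Of the groups of 4 or 5 libraries checked for each member, 3 of 36 had a library whose gap to the next exceeds Dixon's critical value, where chance gives about 1 in 20. JUN in siRNA KD1 was at 51.8 CPM, below the other KD libraries. JUND in siRNA NTC5 was at 76.1 CPM, below the other NTC libraries. ATF3 in SK-N-AS KD1 was at 14.7 CPM, below the other KD libraries.

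The responses of members that differed between experiments by the interaction test were, for SK-N-SH CRISPRi minus siRNA on the log2 scale, -0.62 for FOS, 0.45 for FOSL1, 0.93 for FOSL2, -0.29 for JUNB and -0.30 for JUND. For SK-N-AS minus SK-N-SH CRISPRi they were 1.00 for FOS, 1.34 for FOSB, 0.58 for FOSL1, -0.21 for FOSL2 and 0.59 for JUNB.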

How the results depend on the processing

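The counts of called members stayed within 1.5 times the reported ones under all alternatives run, and no called member changed direction. Uncalled values changed sign as follows. With library totals alone, JUND with siRNA became 0.0098 on the log2 scale, and the SK-N-SH CRISPRi minus siRNA differences became -0.13 for JUN and -0.15 for ATF3. Without siRNA KD4 and NTC5, an alternative chosen after the data were seen, FOSB became -0.13. Over fits without 1 library, values ran from -0.0286 to 0.1475 for FOS and from -0.0925 to 0.1563 for FOSB with siRNA. The CRISPRi minus siRNA differences ran from -0.0047 to 0.11 for JUN and from -0.0732 to 0.194 for ATF3, and the SK-N-AS minus SK-N-SH difference of JUN from -0.0194 to 0.0607. The causes were not tested.

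Groups share replicate numbers, but over all genes same-numbered libraries did not deviate together (correlations of -0.14 to 0.05). The numbers were therefore used as names of libraries only. Correlations over all genes cannot show whether single members were paired, which was not tested. With the replicate block, 2 members were called with siRNA, 6 in SK-N-SH CRISPRi and 5 in SK-N-AS, FOS in SK-N-AS had an adjusted p of 0.0644, the JUNB difference between the SK-N-SH experiments had 0.0647, and the ATF3 difference there became -0.0045.

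Few reads limit BATF3 in SK-N-SH CRISPRi, and also FOSB with siRNA, where its level was low in deep libraries.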
